A study of Homo sapiens with 6 samples.

Results

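The genes that repair DNA breaks by homologous recombination and remove DNA interstrand crosslinks by the Fanconi pathway were followed in SKOV3 cells with silenced KLF5. SKOV3 is a long-established line of human ovarian carcinoma cells, and KLF5 is a zinc finger transcription factor. The 47 genes were chosen by name, among the 29185 genes of the deposited table, as the BRCA, Fanconi, end-processing, checkpoint and recombination genes of interest for resistance to olaparib, an inhibitor of PARP enzymes. Poly(A) RNA was sequenced from cells carrying a pLKO vector that silences KLF5 (sh-KLF5, 3 libraries) and from control cells (sh-NC, 3 libraries). The sample labels give the genotype of the control cells as WT, whereas their titles name them NC. Both came from the same line, no drug treatment is named in the labels, and the vector carries puromycin resistance, with which the stable cells were selected. The libraries are labelled as 1 silenced line, with no second construct or rescue among them, and whether each line was a clone or a pool is not given in the sources used here.

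Homologous recombination copies the intact sister chromatid into a broken DNA molecule after the ends have been trimmed, and it is used mainly in S and G2 phase, when a sister is present. The Fanconi pathway recognises a crosslink at a stalled replication fork, marks the FANCI-FANCD2 pair with ubiquitin and hands the opened lesion to nucleases and to recombination. Ovarian cancer cells that have lost BRCA1, BRCA2 or other recombination genes are known for their sensitivity to PARP inhibitors, and several of these genes are known to be transcribed mostly in cells that replicate DNA.

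Depth was nearly equal, with 15852319 to 17543896 recovered reads per library. The values are normalized counts, which are reads per gene divided by 1 factor per library. All pairs of libraries within a group differed by more than sampling noise, so none was a mere second sequencing of another. The chi-square per degree of freedom was 4.66 to 9.33 between sh-NC libraries and 11.6 to 34.3 between sh-KLF5 libraries, which were thus the more variable group. KLF5 (chr13:73054976-73077542, plus strand) was read at 4371, 4425 and 4494 normalized counts in sh-NC libraries 1 to 3 and at 1745, 1439.9 and 1436 in sh-KLF5 libraries 1 to 3. The silenced gene was thus lower in every sh-KLF5 library, at 34.8% of the sh-NC mean, with a log2 fold change of -1.53 ± 0.12 (SE) and a limma adjusted p of 2.47e-07. Fold changes are on the scale of log2(normalized count + 1), and p-values are from limma with Benjamini-Hochberg adjustment over the 15803 genes that passed a filter on low counts. The study's general statement on statistics speaks of independent repeats for all its data, but the labels and the sequencing methods do not say whether the 3 libraries of a group came from separate cultures. The p-values measure the spread between these libraries, which may then be technical.

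All 47 genes passed the filter on low counts, and the fewest reads behind any value were 47, for RAD54B in sh-KLF5 library 3. At a limma adjusted p under 0.05, 8 of the 47 were lower in sh-KLF5 and 0 were higher, beside a background of 12.9% of all tested genes called in either direction, 6.85% lower and 6.04% higher. The 8 genes were BARD1, BRIP1, RAD54L, XRCC2, EXO1, FANCA, FANCD2 and FANCI. Their sh-KLF5 means were 56.0% to 71.8% of the sh-NC means, and 0 of the 47 had both an adjusted p under 0.05 and a change over 2-fold, which 5.28% of all tested genes had (3.37% downward). The study's methods pair the same fold with a p under 0.05, without saying whether it was adjusted. Without adjustment, 16 of the 47 were lower and 2 were higher at a limma p under 0.05, beside 13.4% and 12.8% of all tested genes. The log2 fold change was below 0 in 36 of the 47, and in 50.3% of all tested genes, and its median was -0.18 over the 47 and -0.0023 over all tested genes. In bulk RNA, fewer cells that express a gene and less of its RNA per cell cannot be told apart.

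**Figure D1:**
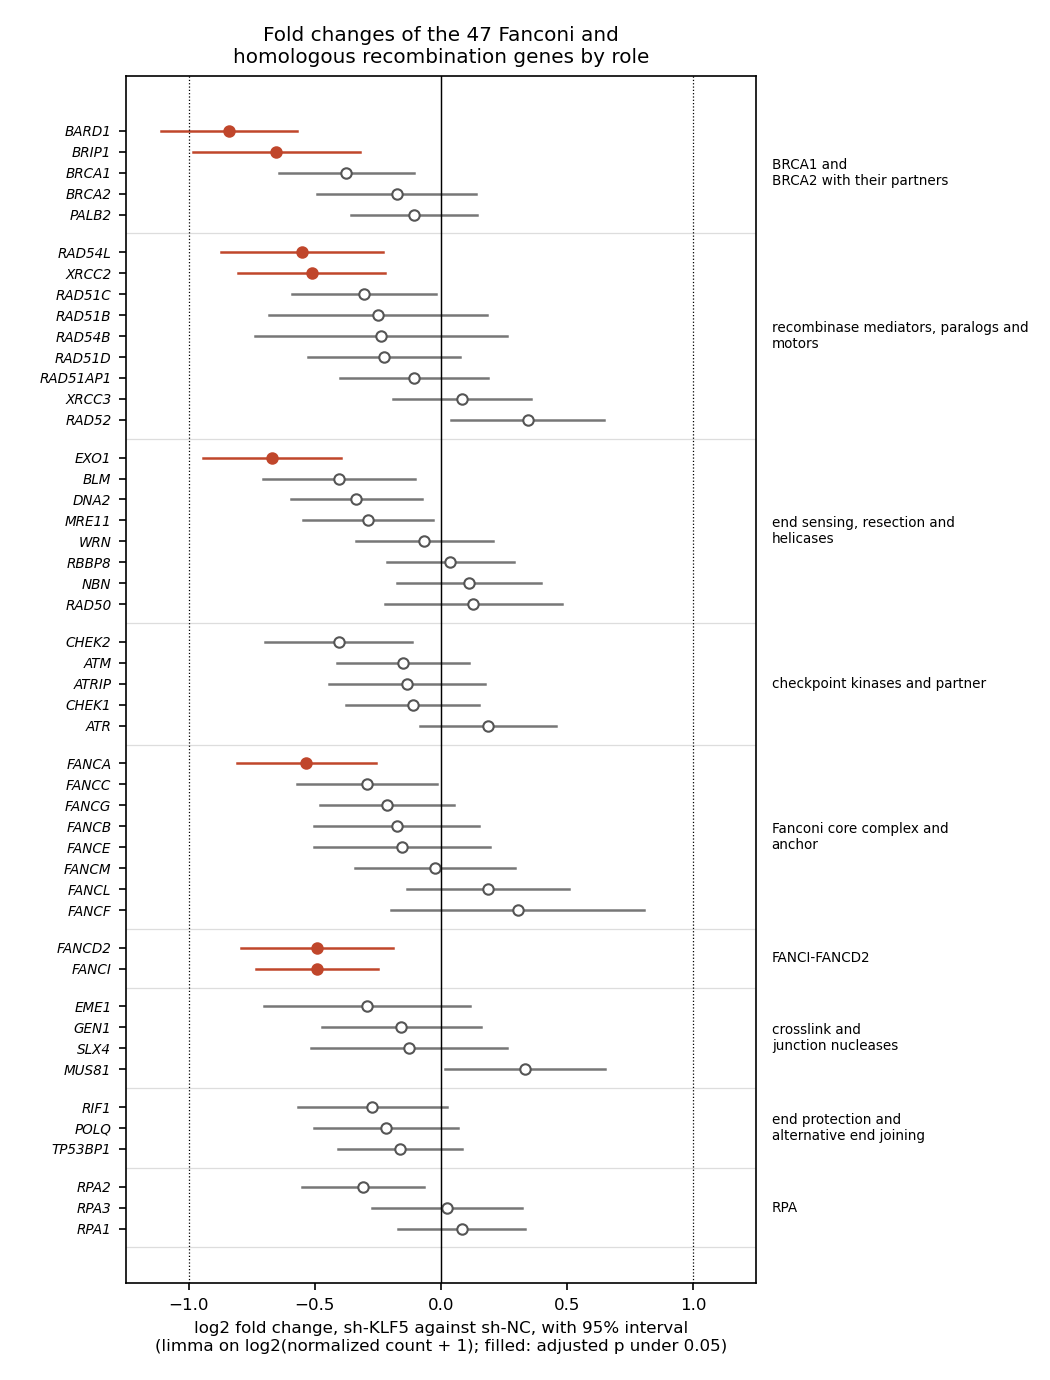
Log2 fold change of each of the 47 genes in sh-KLF5 against sh-NC (point) with its 95% interval (line), grouped by role, from limma on log2(normalized count + 1). The 8 filled points, from BARD1 at -0.84 to FANCI at -0.49, had an adjusted p under 0.05, and only the interval of BARD1 crosses the dotted line at -1.

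Among BRCA1, BRCA2 and their partners, BARD1 and BRIP1 were lower in sh-KLF5 and the other 3 did not pass the test. BARD1, the partner with which BRCA1 forms a ubiquitin ligase, lies at chr2:214725646-214809711, minus strand. It was read at 814, 889 and 790.5 normalized counts in sh-NC libraries 1 to 3 and at 521, 416 and 458 in sh-KLF5 libraries 1 to 3. All sh-KLF5 values lay far under all sh-NC values, and BARD1 kept 56.0% of its sh-NC mean, the smallest share among the 47. Its log2 fold change was -0.84 ± 0.13 (SE, limma adjusted p = 0.000255), with a 95% interval of -1.11 to -0.57. BRIP1, a DNA helicase that binds BRCA1 and is also the Fanconi gene FANCJ, lies at chr17:61681266-61863521, minus strand. It was read at 758, 1000.1 and 684 normalized counts in sh-NC and 586, 429.8 and 527 in sh-KLF5. The groups did not overlap, although sh-NC library 2 stood above the other sh-NC libraries, and the log2 fold change was -0.65 ± 0.16 (SE, limma adjusted p = 0.00986).

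BRCA1 itself, which acts early in end trimming and in loading the recombinase, was read at 1829, 1861 and 1616 normalized counts in sh-NC and 1338, 1192 and 1578 in sh-KLF5. The groups did not overlap, but sh-KLF5 library 3 came within a few percent of the lowest sh-NC library, and the log2 fold change of -0.38 ± 0.13 (SE) had a limma adjusted p of 0.0623. BRCA2, which carries the recombinase onto single-stranded DNA, was read at 1794, 1714 and 1208 in sh-NC and 1445, 1192 and 1494 in sh-KLF5. Here sh-NC library 3 lay under 2 of the sh-KLF5 libraries, and the log2 fold change was -0.18 (95% interval -0.49 to 0.14, limma adjusted p = 0.499). PALB2, the bridge between BRCA1 and BRCA2, was read at 787, 769 and 750.2 in sh-NC and 779.7, 674 and 691 in sh-KLF5, so that sh-KLF5 library 1 lay inside the sh-NC range. Its log2 fold change was -0.11 (95% interval -0.36 to 0.14, limma adjusted p = 0.614).

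Among the 9 recombinase mediators, paralogs and motors, RAD54L and XRCC2 were lower and the other 7 did not pass. RAD54L, a motor protein that remodels DNA during strand exchange (chr1:46247688-46278473, plus strand), was read at 510.2, 505 and 467 normalized counts in sh-NC and 279, 329 and 415 in sh-KLF5. The sh-NC libraries lay close together and the sh-KLF5 libraries were spread, with a log2 fold change of -0.55 ± 0.15 (SE, limma adjusted p = 0.0231). XRCC2, a paralog of the recombinase that works in a complex with RAD51B, RAD51C and RAD51D (chr7:152644779-152676165, minus strand), was read at 1332, 1402 and 1133 in sh-NC and 874, 772 and 1078 in sh-KLF5. Only a small gap parted sh-KLF5 library 3 from sh-NC library 3, and the log2 fold change was -0.51 ± 0.14 (SE, limma adjusted p = 0.0206). Its 3 partners in that complex had log2 fold changes of -0.31 for RAD51C, -0.25 for RAD51B and -0.23 for RAD51D, with limma adjusted p-values of 0.159, 0.479 and 0.343. RAD51AP1, XRCC3 and RAD54B, which assist the recombinase, stood at -0.11, 0.081 and -0.24. RAD52, which anneals single strands, had the highest log2 fold change of the 47, at 0.34 ± 0.14 (SE, limma adjusted p = 0.136), and all its sh-KLF5 values (405, 358 and 362) lay above its sh-NC values (337, 263 and 289). The genes of the 47 that are named in this and the next paragraphs without having passed the test, other than ATM, ATR and RPA1, were singled out after their values were seen.

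Of the 8 genes for end sensing, end trimming and helicases, EXO1 was lower. EXO1, an exonuclease that trims DNA ends over long distances and also serves mismatch repair (chr1:241847967-241895148, plus strand), was read at 966, 1006 and 1089.7 normalized counts in sh-NC and 629.9, 561 and 741 in sh-KLF5. The groups were well apart in all 6 libraries, and the log2 fold change was -0.67 ± 0.13 (SE, limma adjusted p = 0.00190). The nuclease and helicase DNA2 and the helicase BLM, which act in the same step, had log2 fold changes of -0.34 and -0.41 (limma adjusted p = 0.0878 and 0.0742). Of the 3 subunits of the complex that senses broken ends, MRE11 had a log2 fold change of -0.29, RAD50 of 0.13 and NBN of 0.11, and none of the 3 passed the test. RBBP8, which starts end trimming with that complex, stood at 0.038 and the helicase WRN at -0.066.

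Of the 5 checkpoint genes, none passed the test. ATM, the kinase that answers to broken ends, was read at 2058, 2099.8 and 1664 normalized counts in sh-NC and 1901, 1651 and 1671 in sh-KLF5, with overlapping groups and a log2 fold change of -0.15 (95% interval -0.41 to 0.11, limma adjusted p = 0.477). ATR, the kinase that answers to single-stranded DNA at stalled forks, was read at 2901, 3013 and 2365 in sh-NC and 3523, 2997 and 2889.7 in sh-KLF5, again with overlap and with a log2 fold change of 0.19 (95% interval -0.082 to 0.46, limma adjusted p = 0.382). Neither interval reached a change of 2-fold in either direction. Their targets CHEK2 and CHEK1 stood at -0.41 and -0.11 on the log2 scale. CHEK2 had the lowest fold change among the genes that did not pass (limma adjusted p = 0.0644), and all its sh-KLF5 values (275, 284 and 252) lay under its sh-NC values (385, 347 and 344). ATRIP, the partner of ATR, stood at -0.14.

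In the Fanconi pathway proper, the FANCI-FANCD2 pair and 1 of the 8 genes of the core complex and its anchor were lower. FANCI (chr15:89243949-89317261, plus strand) was read at 5538, 5695 and 5220.5 normalized counts in sh-NC and 3798, 3591 and 4335 in sh-KLF5. FANCD2 (chr3:10026414-10101930, plus strand) was read at 1413, 1689.9 and 1504 in sh-NC and 1047, 906 and 1356 in sh-KLF5. The groups did not overlap for either gene, but for FANCD2 sh-KLF5 library 3 came close to sh-NC library 1. Their log2 fold changes were the same to 2 decimals, at -0.49 ± 0.11 (SE, limma adjusted p = 0.00826) for FANCI and -0.49 ± 0.14 (SE, limma adjusted p = 0.0308) for FANCD2. FANCA, a subunit of the core complex that acts on the pair (chr16:89737549-89816657, minus strand), was read at 1424, 1545 and 1331 in sh-NC and 845, 988 and 1154 in sh-KLF5. All sh-KLF5 values lay under all sh-NC values, and the log2 fold change was -0.53 ± 0.13 (SE, limma adjusted p = 0.0111). The other 7 ran from -0.29 for FANCC to 0.30 for FANCF, with FANCL, the subunit that carries the ligase activity, at 0.19 (limma adjusted p = 0.474). FANCM, the DNA translocase that anchors the complex, stood at -0.025.

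**Figure D2:**
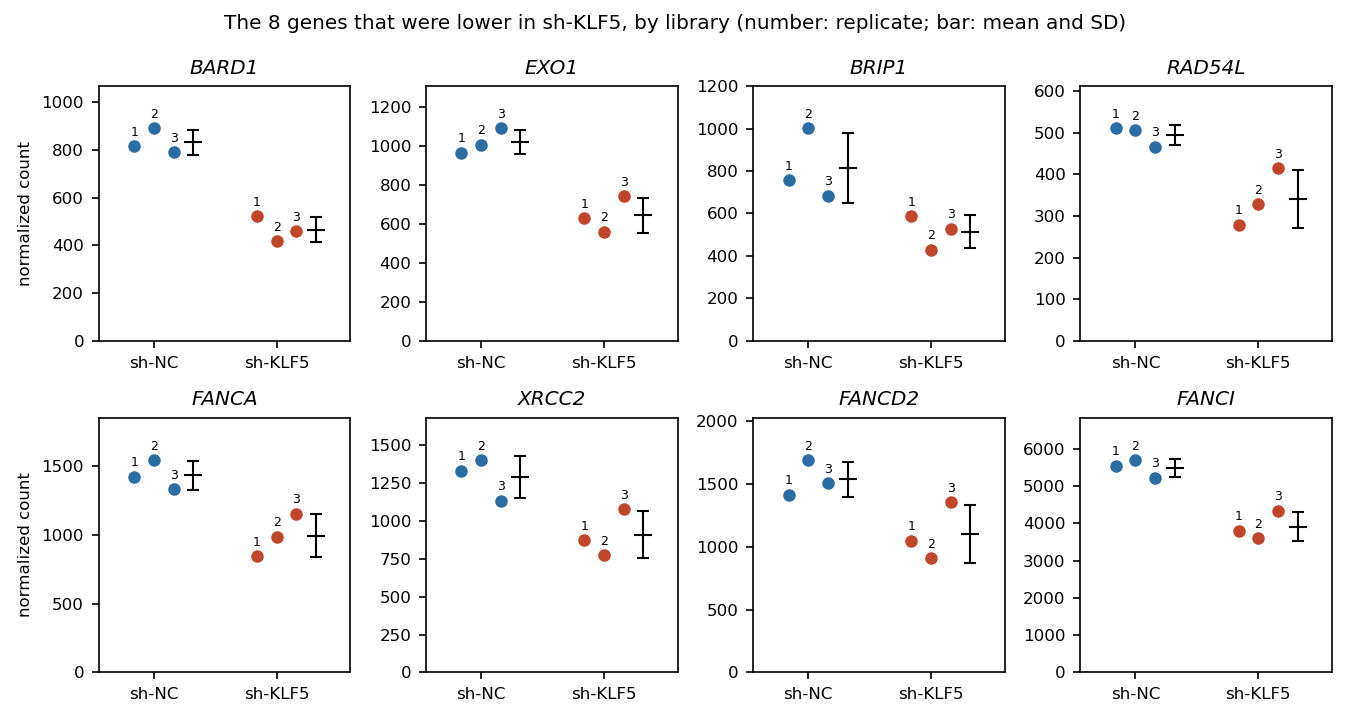
Normalized counts of the 8 genes that were lower in sh-KLF5, with 1 point per library (number: replicate) and the mean with its SD beside each group (n = 3), on axes that start at 0. No sh-KLF5 point reaches a sh-NC point of the same gene, and sh-KLF5 library 3 is the highest sh-KLF5 point in 6 of the 8 panels.

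None of the 4 nuclease genes passed the test, and they ran from -0.29 for EME1 to 0.33 for MUS81, which encode the 2 subunits of one structure-specific endonuclease. MUS81 was read at 233, 284 and 309 normalized counts in sh-NC and 319, 342 and 375 in sh-KLF5, with no overlap and a limma adjusted p of 0.169. SLX4, the scaffold for crosslink nucleases, stood at -0.13, with sh-KLF5 library 1 at 279 and the other 2 sh-KLF5 libraries inside or above the sh-NC range. TP53BP1 and RIF1, which shield ends from trimming, and POLQ, the polymerase of alternative end joining, stood at -0.16, -0.27 and -0.22, and none passed. Replication protein A, which coats single-stranded DNA, has 3 subunits. RPA1, the large subunit, was read at 3187, 3042 and 3511 in sh-NC and 3226, 3205 and 3903 in sh-KLF5, with a log2 fold change of 0.082 (95% interval -0.17 to 0.34, limma adjusted p = 0.714). RPA2 stood at -0.31 (limma adjusted p = 0.0890) and RPA3 at 0.023.

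The 39 genes that did not pass had log2 fold changes of -0.41 to 0.34, with 28 below 0 and 11 above 0, and none of their 95% intervals reached -1 or 1. A change of 2-fold was therefore outside the interval of each of these 39 genes, whereas smaller changes could not be told from none for most of them. Counting libraries in place of testing, the sh-KLF5 values lay under all sh-NC values in 15 of the 47 genes and above them in 2, beside 15.9% and 15.4% of all tested genes. The 15 were the 8 genes that passed and BRCA1, MRE11, DNA2, CHEK2, FANCC, FANCG and RPA2, and the 2 were RAD52 and MUS81.

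The sh-KLF5 libraries did not sit at equal distances from the control. Over the 47 genes, the median log2 difference from the sh-NC mean was -0.26 in sh-KLF5 library 1, -0.26 in library 2 and -0.12 in library 3, and over all tested genes it was under 0.01 in size in every library. Among the 3 sh-KLF5 libraries, library 2 held the lowest value for 29 of the 47 genes and library 3 the highest for 24. Library 1 was split, with the highest value for 19 genes and the lowest for 11. For the 8 lower genes the medians were -0.61, -0.74 and -0.32 in sh-KLF5 libraries 1 to 3. KLF5 itself was read at 1745, 1439.9 and 1436 normalized counts in sh-KLF5 libraries 1 to 3. Whether its level bears on the differences between these libraries was not tested.

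**Figure D3:**
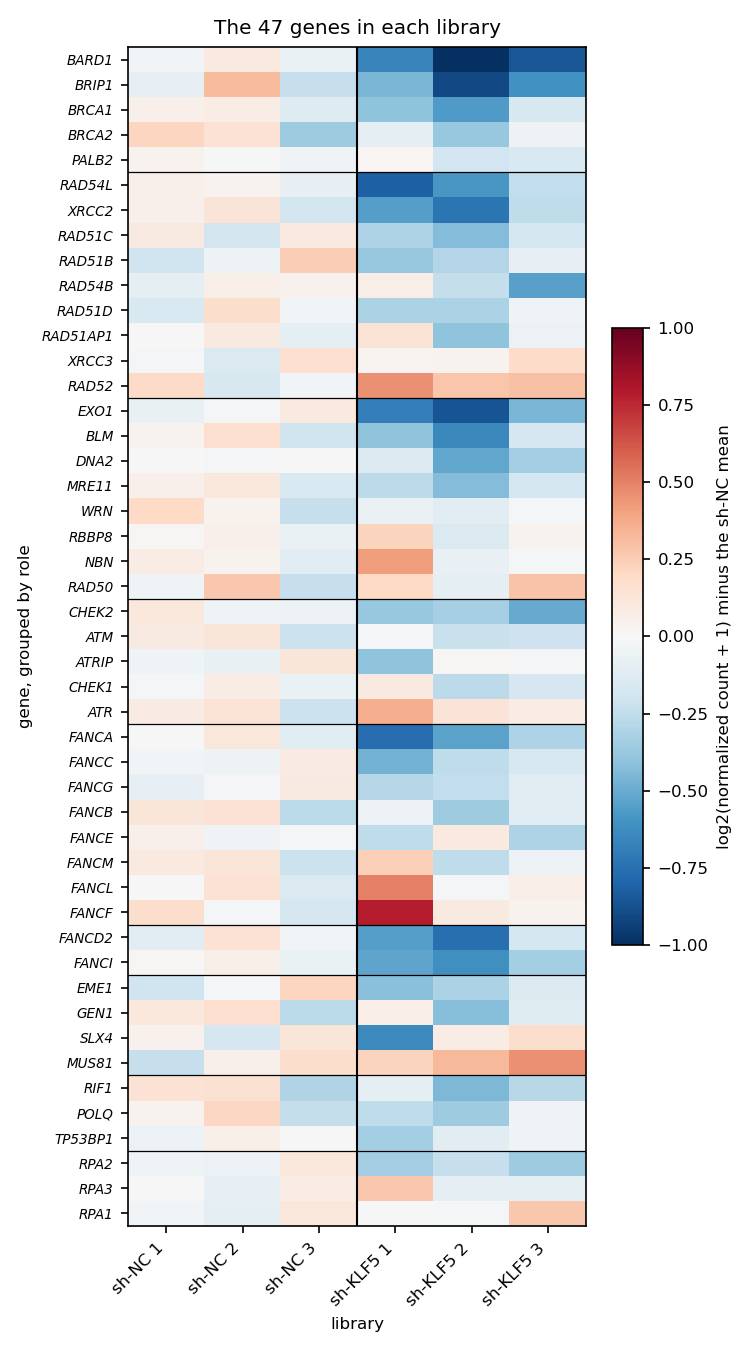
Difference of log2(normalized count + 1) from the sh-NC mean for each of the 47 genes (rows, grouped by role) in each library (columns), with blue for lower and red for higher. The blue cells of BARD1, BRIP1, RAD54L, XRCC2, EXO1, FANCA, FANCD2 and FANCI run through all 3 sh-KLF5 columns and are palest in sh-KLF5 library 3 for 6 of the 8 lower genes.

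The number of genes called lower depended on single libraries. BARD1 and EXO1 passed whichever single library was left out, with log2 fold changes of -0.92 to -0.76 and -0.78 to -0.58. Without sh-NC library 1, 4 genes passed (BARD1, BRIP1, EXO1 and FANCA), without sh-NC library 2 only BARD1 and EXO1, and without sh-KLF5 library 2 again 4 (BARD1, EXO1, FANCA and FANCI). Without sh-NC library 3, RAD54L and FANCD2 were lost, and of the 6 fits with 1 library left out these genes passed only in those without sh-KLF5 library 1 or 3. In the other direction, BRCA1 also passed without sh-KLF5 library 1 or library 3, CHEK2 and DNA2 without library 1 and BLM without library 3, which gave 11 and 10 genes. Calls over all tested genes moved the same way, with 4.53% of genes lower without sh-NC library 1, 4.30% without sh-NC library 2, 4.54% without sh-NC library 3, 5.70% without sh-KLF5 library 2, 9.25% without sh-KLF5 library 1 and 7.01% without sh-KLF5 library 3, against 6.85% with all libraries. The log2 fold change of all 8 genes stayed below 0 in each case, from -0.92 for BARD1 to -0.36 for FANCD2.

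Many, but not all, S-phase genes were lower in sh-KLF5. Of 30 S-phase genes (replication licensing, forks and nucleotide synthesis), 18 were lower and 0 higher at a limma adjusted p under 0.05, with a median log2 fold change of -0.43, beside the same background of 6.85% called lower. CDC45, a part of the replicative helicase, was read at 568, 749.9 and 729 normalized counts in sh-NC and 290.5, 327 and 373 in sh-KLF5, without overlap (log2 fold change -1.04, limma adjusted p = 0.000126). The licensing factor CDC6 changed by -0.74 on the log2 scale (limma adjusted p = 0.000196). The other 12 did not pass, among them the cyclin gene CCNE1 (named after its values were seen), whose sh-KLF5 values (576, 658 and 596) lay above its sh-NC values (507, 397 and 471, log2 fold change 0.42, limma adjusted p = 0.0504). The summed normalized count of the 30 genes was 65256 to 72317 in the sh-NC libraries and 49394 to 54244 in the sh-KLF5 libraries, without overlap. The count of 18 was 11 without sh-NC library 1 and 9 without sh-NC library 2 or 3. Of 25 G2/M genes, 4 were lower (MKI67, CCNA2, KIF11 and TPX2, the last named after its values were seen) and 0 higher, with a median of -0.21. Their summed count was 93689 to 104014 in sh-NC and 72460.3 to 95501 in sh-KLF5, with sh-KLF5 library 3 inside the sh-NC range, the library in which 6 of the 8 repair genes were also nearest to sh-NC. The part of cell cycle phase in the lower levels of the 8 genes was not tested.

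**Figure D4:**
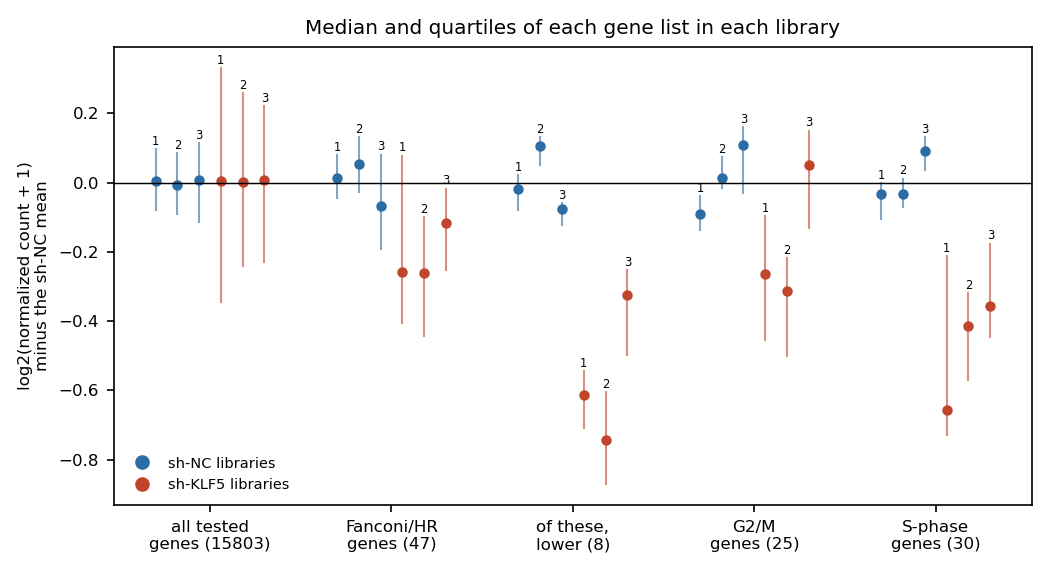
Median (point) and quartiles (line) of the log2 difference from the sh-NC mean in each library, for all tested genes, the 47 genes, the 8 of them that were lower (chosen by this contrast), 25 G2/M genes and 30 S-phase genes. The medians of all tested genes stay within 0.01 of 0 in every library, the S-phase medians of sh-KLF5 libraries 1 to 3 are -0.66, -0.41 and -0.36, and the G2/M medians are -0.26, -0.31 and 0.050.

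The sequence around the start sites, which the choice of the 47 did not use, was searched for words that cell cycle and KLF factors are known to bind. RefSeq windows (GRCh38.p14) of 250 bases before to 50 after a start were found for 40 of the 47 genes and for 7 of the 8 lower ones. RAD54B, NBN, DNA2, WRN, FANCI, RPA2 and RPA3 had none. E2F factors, which are known for driving S-phase genes, read words of the kind TTTCCCGC, TTTGGCGC, TTTCGCGC and TTTGCCGC. Searched on both strands without mismatch, 1 or more of these words stood in 4 of the 7 lower genes (EXO1, FANCA, FANCD2 and XRCC2) and in 2 of the 33 others (FANCC and GEN1). The share was 64.0% in the 25 S-phase genes with a window, 15.8% in the 19 G2/M genes and 3.99% in all 27305 genes, and the differences between these shares were not tested. The 27305 are all genes with a window, whether or not they were expressed here, so they are not the same background as the 15803 tested genes. The stretches of 30 bases around the words in the 6 genes are shown because they set the lower genes beside the others, with the word in capitals, on the strand of the gene, 5′ to 3′.
EXO1 (lower, chr1:241848197-241848226, plus strand): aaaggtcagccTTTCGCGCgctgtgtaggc
FANCD2 (lower, chr3:10026424-10026453, plus strand): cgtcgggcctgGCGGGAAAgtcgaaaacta
XRCC2 (lower, chr7:152676102-152676131, minus strand): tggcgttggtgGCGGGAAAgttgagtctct
FANCA (lower, chr16:89816801-89816830, minus strand): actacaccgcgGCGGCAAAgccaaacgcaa
FANCC, upstream word (not passed, chr9:95317863-95317892, minus strand): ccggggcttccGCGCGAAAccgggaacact
FANCC, word nearer the start (not passed, chr9:95317737-95317766, minus strand): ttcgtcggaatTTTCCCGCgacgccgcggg
GEN1 (not passed, chr2:17753859-17753888, plus strand): cagttgcggggTTTCGCGCcgccggagtct

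FANCD2 and XRCC2 held the same word, GCGGGAAA, within 22 bases of a RefSeq start, and EXO1 and GEN1 held TTTCGCGC there, although GEN1 stood at a log2 fold change of -0.16 (limma adjusted p = 0.550). FANCC, with 2 such words, stood at -0.29 (limma adjusted p = 0.163). BARD1, BRIP1 and RAD54L held none of the E2F words. BARD1, which had the largest fall of the 47, is shown for its GC boxes, GGGCGG on either strand, a word that KLF and SP factors are known to bind, of which its window held 5. The stretch upstream of its start holds 2 of them, in capitals, and no base of an annotated exon.
BARD1 (chr2:214809712-214809809, minus strand): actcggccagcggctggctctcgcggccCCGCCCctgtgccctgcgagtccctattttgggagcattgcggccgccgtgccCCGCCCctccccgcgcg

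A GC box stood in 7 of the 7 lower genes with a window, in 24 of the 33 that did not pass, in 31 of all 40 and in 48.3% of all 27305 genes. It can share letters with an E2F word. The number of boxes per window was counted for BARD1 alone, so its 5 are not set against other genes. CACCC, the other word that KLF factors are known to bind, stood in 5 of the 7 lower genes, in 65.0% of the 40 and in 63.1% of all genes. CCAAT stood in 20 of the 40 and in 39.7% of all genes, and the words TTTGAA and TTCGAA of the cell cycle element CHR stood in 15.0% of the 40, in 68.4% of the G2/M genes and in 19.5% of all genes. These matches describe letters in a window and are no evidence of binding.

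The 47 genes covered a wide range of levels. Per kilobase of exon, the sh-NC means ran from 13.0 normalized counts for RAD54B to 706 for FANCI, with a median of 137 over the 47. FANCI (706 ± 31.2 per kilobase, SD, n = 3), RPA1 (591 ± 43.7) and RPA2 (580.3 ± 37.3) stood highest, and RPA1 and RPA2 did not differ beyond their spread. RPA3, the small subunit of the same trimer, stood at 129 ± 6.98 per kilobase. The lengths count all annotated exon bases of a gene (3232 for RPA3 and 2019 for RPA2), whichever transcripts the cells expressed. Levels of different genes can therefore be compared only roughly. BRCA1 stood at 193 ± 14.5 and its partner BARD1 at 137 ± 8.47 per kilobase in sh-NC, against 149 ± 21.2 and 76.7 ± 8.67 in sh-KLF5. The 8 lower genes lay between 102 per kilobase (BRIP1) and 706 (FANCI), and the genes at the lowest levels, such as RAD54B and RAD51B, had the wider intervals.

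**Figure D5:**
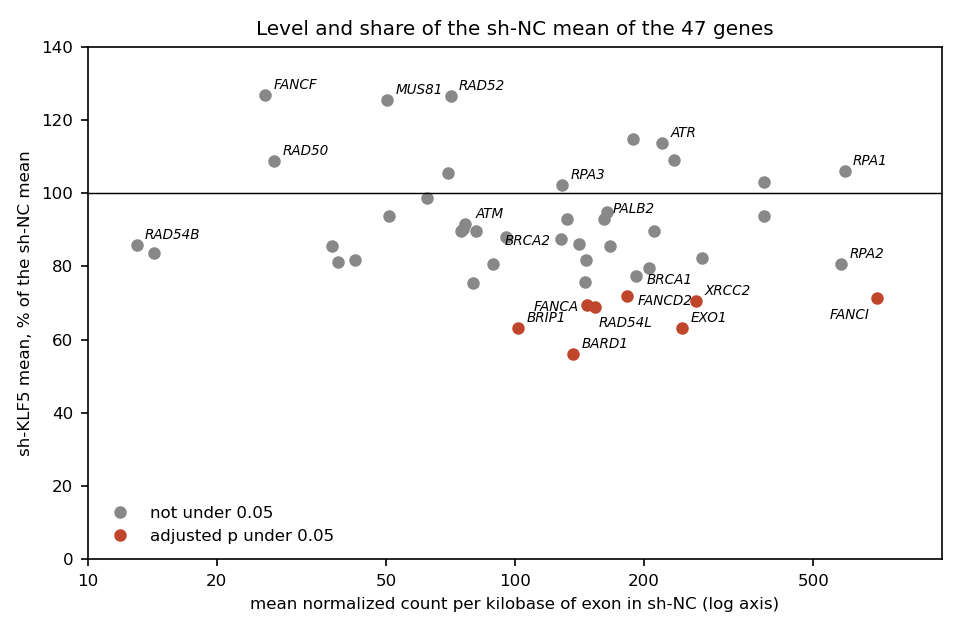
Mean sh-NC level per kilobase of exon (log axis) against the sh-KLF5 mean as a percentage of the sh-NC mean, with 1 point for each of the 47 genes and the 8 lower genes in red. The red points lie between 56.0% and 71.8% and between 102 and 706 normalized counts per kilobase, and none of the genes under 100 per kilobase is red.

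Further genes of the same pathways, in 4 lists of 73 genes of which 70 were tested, gave 4 lower and 1 higher, with a median log2 fold change of -0.076. The share called lower was 5.71%, no more than the 6.85% of all tested genes. Looser counts stood above the background on the lower side. Without adjustment, 19 of the 70 were lower and 4 higher at a limma p under 0.05, beside 13.4% and 12.8% of all tested genes. The sh-KLF5 values lay under all sh-NC values in 20 (28.6%) and above them in 5, beside 15.9% and 15.4%. Of 16 other Fanconi and crosslink repair genes, 1 was lower, the ubiquitin ligase RFWD3 (-0.54, limma adjusted p = 0.00570). Next by p were the nuclease DCLRE1A (-0.40) and FAAP100 (0.30), a core complex subunit, which did not pass. Of 30 other recombination genes, 1 was lower, the helicase MCM8 (-0.56, limma adjusted p = 0.00449), followed by FIGNL1 (-0.38) and BRCC3 (-0.37), which did not pass. MCM8 was read at 1341, 1399 and 1292 normalized counts in sh-NC and 865, 839 and 1039.8 in sh-KLF5, without overlap. Of 14 break signalling genes, the ATR mediator CLSPN (-0.41, limma adjusted p = 0.0393) and the ubiquitin ligase RNF168 (-0.42, limma adjusted p = 0.0417) were lower, and MDC1 (-0.40) was next. Of 10 tested genes of classical end joining and shieldin, the end-joining factor PAXX was higher (0.56, limma adjusted p = 0.0199) and 0 were lower, with PRKDC (-0.34) and SHLD2 (-0.36) next by p. The count of 5 called genes in these lists moved to 2 without sh-NC library 1 or 2, to 3 without sh-NC library 3 or sh-KLF5 library 2, and to 14 without sh-KLF5 library 1.

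Some of the 47 genes share exon sequence with neighbours in GENCODE 29 on GRCh38, and whether the counting used strand is not given in the sources used here. Of the 8 lower genes, RAD54L shares 25.1% of its exon bases with LRRC41 on the other strand (3441 to 4359 normalized counts per library) and FANCA shares 23.6% with ZNF276 (448 to 599.6). LRRC41 had a log2 fold change of 0.18 and ZNF276 of -0.16, and neither passed the test. The levels of RAD54L and FANCA are uncertain to the extent that reads in the shared bases were left out or were counted on the wrong gene. FANCI shares 5.90% with POLG and FANCD2 3.12% with FANCD2OS, and BARD1, BRIP1, XRCC2 and EXO1 share none. XRCC3 shares 76.7% of its exon bases with KLC1 on the other strand, which was read at 861 to 1060.2 normalized counts, so its level is uncertain too. TP53BP1 (28.7%), ATRIP (27.9%), FANCL (19.7%), ATR (16.4%), EME1 (16.4%), MUS81 (14.1%) and FANCF (11.3%) also share exon bases with neighbours. Their levels are uncertain in the same way. The overlap of RAD50 (79.7%) and RAD54B (59.1%) is almost wholly with AC116366.3 and FSBP, which lie on the same strand and held at most 5 reads and 1 read in any library. How reads in shared bases were assigned is not known here, and such reads may have been left out. The levels of RAD50 and RAD54B are therefore uncertain as well. FANCD2P2, a pseudogene copy of FANCD2, held at most 4 reads.

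The markers of the line were also checked. Of 6 SKOV3 markers, KRT8, KRT18, ERBB2, PAX8 and EPCAM were read in all libraries and KRT19 was near 0, at 1.97 to 16.5 normalized counts. KRT8 and KRT18, keratins of simple epithelia, were lower in sh-KLF5 (-1.17 and -0.64, limma adjusted p = 4.35e-05 and 0.00343). Of 9 markers of other cell types, 6 were in the table and 1, the endothelial PECAM1, passed the filter, at 59.6 to 79.6 normalized counts in sh-NC and 31.1 to 64.0 in sh-KLF5. The leukocyte marker PTPRC stood at 0 in all sh-NC libraries and at 0 to 1 read in the sh-KLF5 libraries, and CD68, VWF, MYH7 and GFAP at 0 to 10.2 normalized counts.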

How the data were processed

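Poly(A) RNA of 3 sh-NC and 3 sh-KLF5 libraries of SKOV3 cells was analysed, with groups and replicate numbers read from the sample labels. The deposited table lists 29185 genes, and its signal columns hold read counts that the authors divided by 1 factor per library. The submitters' processing notes name HISAT2 2.0.5, featureCounts 1.5.0-p3, DESeq2 1.20.0 and hg38. The table also holds the authors' own log2 fold changes with p-values, as deposited, which were not used.

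The smallest value above 0 in each library was taken as 1 read, which made 100% of values whole. The deposited factors equalled median-of-ratios factors computed from these reads. Since the values are normalized, limma 3.58.1 (R 4.3.3) was fitted with its trend and robust options to log2(normalized count + 1), after the filterByExpr filter of edgeR 4.0.16 (minimum count 10), which kept 15803 genes, and with Benjamini-Hochberg adjustment over all of them. With 3 against 3, an exact two-sided permutation test cannot go below p = 0.1, the value that KLF5 gave.

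The 47 genes, their roles and all other lists were chosen with earlier results of these data known, so no list was tested as a set. By rule, the genes that passed, BRCA1, BRCA2, PALB2, ATM, ATR and RPA1, KLF5, and the 3 genes with the smallest p of each further pathway and cell cycle list were given by name, except for an item that is not reported here. Alternatives were edgeR and DESeq2 1.42.0 run on recovered reads, other normalizations, pseudocounts and filters, unadjusted p, a replicate block and leaving out each library. The fits were tested on simulated data. Plots were made in Python 3.11.15 (matplotlib 3.10.9).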

Additional observations from a re-analysis of the deposited data

How the results depend on the processing

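The 8 genes called lower all passed with edgeR (8 genes called), with DESeq2 (9, BRCA1 added), with other normalizations, pseudocounts or at least 10 reads in every library (8 each) and without a filter (9, BLM added). The share of all genes of the fit called lower was 6.87% with edgeR, 7.47% with DESeq2 and 4.94% without a filter. With unadjusted p, 16 of the 47 were lower and 2 higher, beside 13.4% and 12.8% of all tested genes. Of the further pathway lists, 23 genes then passed in place of 5, with 19 lower and 4 higher. Leaving out 1 library gave 2 to 11 lower genes of the 47 and 2 to 14 genes of the further lists, where fewer libraries were tested, and 0 of the 47 passed with a change over 2-fold under any alternative. KLF5 stayed lower, at -1.62 to -1.48 without 1 library.

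Genes with changes near 0 turned sign without 1 library, none of them past the threshold: WRN (-0.18 to 0.035), FANCM (-0.16 to 0.090), RPA3 (-0.10 to 0.084), NBN (-0.043 to 0.20), RBBP8 (-0.053 to 0.13), SLX4 (-0.28 to 0.12), RAD51AP1 (-0.23 to 0.042) and RPA1 (-0.011 to 0.14). The causes were not tested.

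Deviations of same-numbered libraries were weakly correlated over genes, at 0.059, 0.033 and 0.050. Those of differently numbered libraries ran from -0.057 to -0.0011. These correlations were small and the labels name no pairing, so the numbers were not treated as pairs. Each library still correlated best with the library of its own number, a hint from the data and not from the design. With the replicate number as a block, 10 of the 47 were lower (BLM and BRCA1 added) and 11 genes of the further lists passed, while the share of all tested genes called lower rose from 6.85% to 8.75%. At this depth and with 3 libraries per group, the standard errors of the 47 log2 fold changes were 0.11 to 0.24, and the smallest change that passed was -0.49 (FANCI), while -0.41 (CHEK2) did not.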
